A study of Mus musculus with 27 samples.

Results

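The comparison described here set the miRNAs in the culture medium of mouse endothelial cells labelled SRBI knockdown against those in medium labelled control. The members were chosen by a level rule alone, a mean count of at least 5 over the 9 media libraries, which kept 431 of the 1927 entries of the deposited table. The 27 libraries of the series also hold messenger RNA of endothelial cells and of peritoneal macrophages under the same 3 labels. The small RNA libraries used form 3 groups of 3: SRBI knockdown, chylomicron-treated and control, all described as medium of endothelial cells. All shared the same extraction and library chemistry, a multiplex small RNA kit. The labels gave no dose, time, strain, age or cell line for a media library, nor the reagent used for the knockdown. They also did not say whether the knockdown cells received chylomicrons, and the extraction text named PL and PLA murine lines without saying which libraries came from them. Whether the 3 libraries of a group came from separate cultures was not stated, so every p-value below measures only the spread between libraries.

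SR-BI, the scavenger receptor class B type I encoded by Scarb1, is a cell surface receptor that binds high-density lipoprotein and takes up its cholesteryl ester without degrading the particle. In endothelium it is known for nitric oxide signalling started by high-density lipoprotein and for carrying lipoproteins across the cell. A miRNA is a short RNA that an Argonaute protein uses to repress messenger RNAs, chosen mainly by pairing with its seed, bases 2 to 8 from the 5′ end. Outside cells miRNAs travel in vesicles, bound to Argonaute, or on lipoproteins. Each hairpin precursor can give a mature miRNA from its 5′ arm (5p) and its 3′ arm (3p).

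The media libraries held no messenger RNA, so the knockdown could not be checked in them. In the endothelial cell libraries, Scarb1 made up 117 ± 3.11 CPM (counts scaled to a common library total) in SRBI knockdown, 235 ± 34.8 in chylomicron and 281 ± 26.7 in control (SD, n = 3 each), a knockdown level 0.417 times control. These values came from tables that were normalized separately and were not tested. Media libraries held 2180292 to 2786583 counts in SRBI knockdown, 750534 to 2114357 in chylomicron and 1625709 to 2761105 in control. No pair of libraries held identical counts. On the first principal component, which carried 28.0% of the variance, SRBI knockdown replicate 3 lay at 4.01 and replicates 1 and 2 at -11.6 and -14.3, while the control libraries lay between -5.06 and 4.56. The counts of calls, miR-30a-5p and miR-152-3p are given with and without SRBI knockdown replicate 3. Most other values are given only with it.

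Sequences are shown for 9 miRNAs that passed the test: of those with a RefSeq sequence, the ones that held under every processing alternative, the ones that share a seed with another one that passed, and let-7c-5p, which is 1 base from the uncalled let-7a-5p. Their likeness bears on how the values can be read. They are RefSeq mature sequences of build GRCm38.p6, written 5′ to 3′ with the seed in capitals. Of the 431 tested entries 368 matched a RefSeq sequence, and of the 18 that passed the test 15 did, leaving miR-151-3p, miR-30d-5p and miR-143-3p.
miR-155-5p: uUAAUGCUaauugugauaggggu
miR-30a-5p: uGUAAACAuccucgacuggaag
miR-30e-5p: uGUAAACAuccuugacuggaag
miR-21a-5p: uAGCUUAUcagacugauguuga
miR-146b-5p: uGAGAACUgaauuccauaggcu
miR-146a-5p: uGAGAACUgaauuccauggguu
miR-16-5p: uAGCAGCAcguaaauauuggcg
miR-195a-5p: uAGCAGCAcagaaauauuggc
let-7c-5p: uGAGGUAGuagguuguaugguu
miR-30a-5p and miR-30e-5p differed at 1 of 22 bases, miR-146a-5p and miR-146b-5p at 2 of 22, and miR-16-5p and miR-195a-5p at 2 of the 21 bases compared. The counting step behind the table was not stated, so how reads that fit more than 1 of such relatives were assigned is not known here.

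In coordinates of that build, miR-155-5p lies at chr16:84714143-84714165 on the plus strand, and no gene searched held it within its bounds. Genes whose symbols start with Mir were left out of that search, so host genes named this way were not looked for. miR-30a-5p lies at chr1:23272274-23272295, likewise on the plus strand and within no gene searched. miR-30e-5p lies at chr4:120772660-120772681 within Nfyc, a transcription factor subunit gene. miR-21a-5p lies at chr11:86584120-86584141 within Vmp1, an autophagy gene. miR-146a-5p lies at chr11:43374435-43374456 and miR-146b-5p at chr19:46342790-46342811. miR-146b-5p is within the bounds of the long noncoding RNA Gm36493. miR-195a-5p lies at chr11:70235062-70235082. miR-16-5p has a copy at chr3:69009918-69009939 within Smc4, a condensin gene, and a copy at chr14:61631936-61631957 within the long noncoding RNA Dleu2. let-7c-5p has a copy at chr15:85706616-85706637 and a copy at chr16:77599672-77599693. The table used gives gene bounds without exons, so exon and intron were not told apart.

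With SRBI knockdown, 18 of 431 miRNAs (4.18%) differed from control, 8 of them higher (1.86%) and 10 lower (2.32%). miR-155-5p, the miR-30 family members 30a, 30d and 30e, and miR-151-3p made up the 5 largest increases. miR-21a-5p, miR-28a-5p/28c, miR-146b-5p, miR-195a-5p and miR-199a-3p/199b-3p made up the 5 largest decreases. The test was edgeR's quasi-likelihood test, two-sided, with Benjamini-Hochberg adjustment over all 431 entries and a threshold of 0.05. At an unadjusted p under 0.05 there were 77 entries, 42 higher and 35 lower, and the median log2 fold change of all entries was -0.03. Values are CPM scaled by TMM factors, so they are shares of a library and not amounts of RNA per volume of medium. In such pooled RNA, the number of releasing cells and the amount released per cell cannot be told apart.

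The count depended on single libraries. Without SRBI knockdown replicate 3, which stood apart, edgeR called 48 miRNAs, 27 higher and 21 lower, and 17 of the 18 were among them. It called 8 without SRBI knockdown replicate 1, 6 without control replicate 2 and 9 without control replicate 3. DESeq2 on the same libraries called 49, including all 18.

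**Figure D1:**
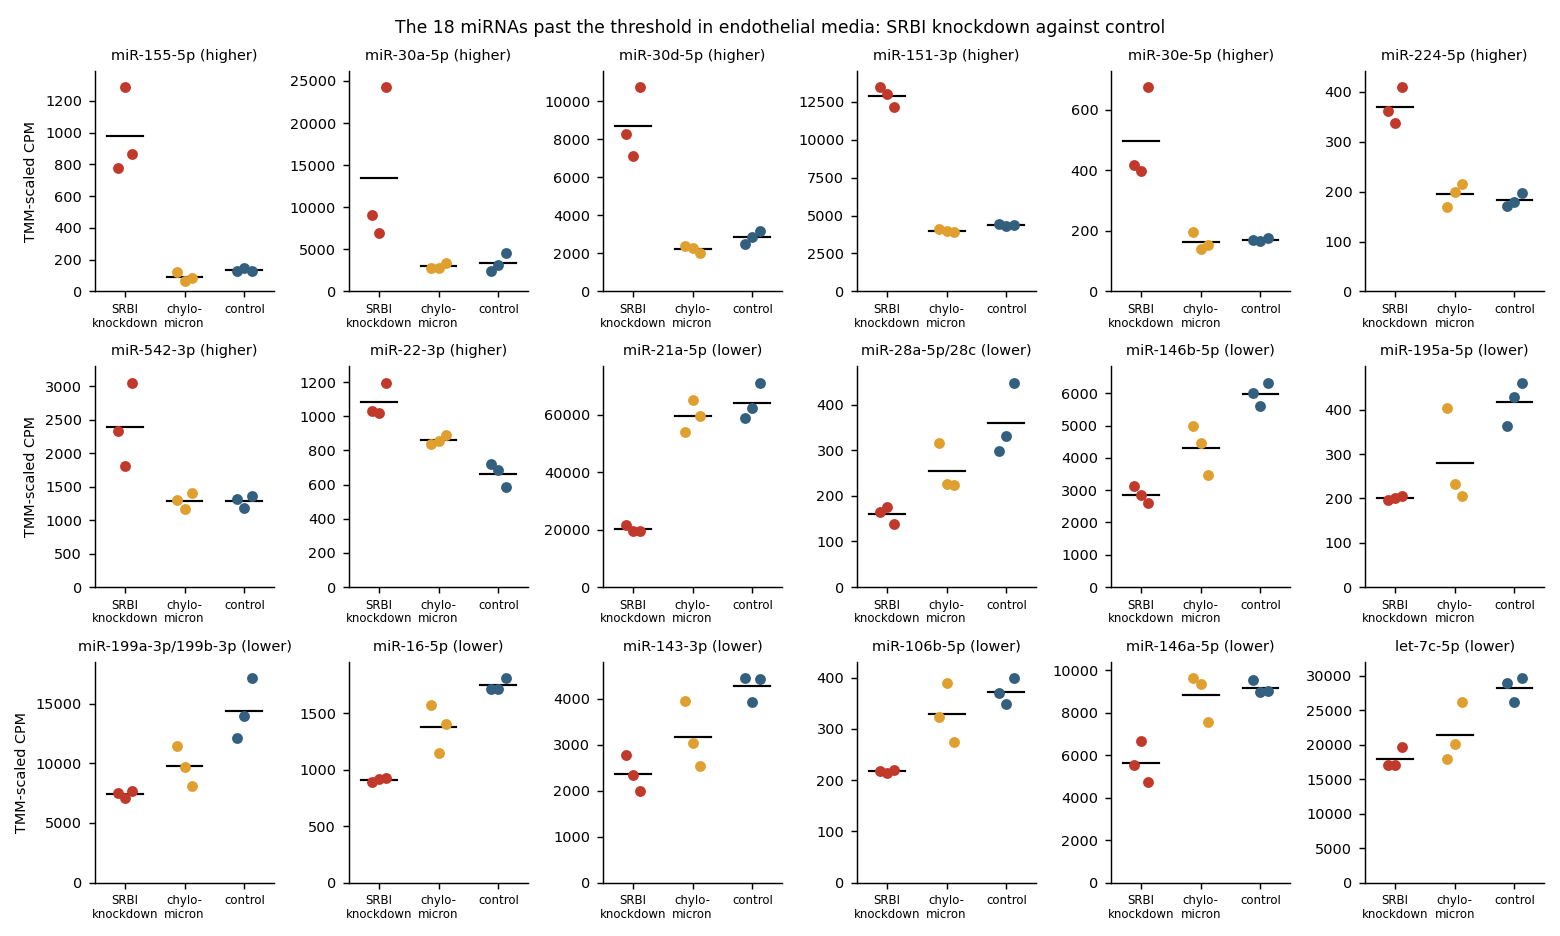
Each panel plots one of the 18 miRNAs that passed the test, with TMM-scaled CPM on the vertical axis, a point per library and a bar at the group mean, for SRBI knockdown, chylomicron and control media. In all 18 panels the 3 SRBI knockdown points lie clear of the 3 control points, and in the miR-30a-5p panel SRBI knockdown replicate 3 lies far above replicates 1 and 2.

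In all 18, the 3 SRBI knockdown libraries did not overlap the 3 control libraries. Such separation occurred in 102 of the 431 entries (23.7%), 50 of them with knockdown higher (11.6%) and 52 with knockdown lower (12.1%). It was thus not particular to the called entries. The calls fell on well covered entries: none of the 141 entries with a mean below 10 CPM was called, 7 of 226 between 10 and 1000 CPM and 11 of 64 above 1000 CPM. The median width of the 95% interval to either side of the log2 fold change was 3.12, 0.76 and 0.41 in these 3 classes. Differences in entries below 10 CPM were therefore mostly not detectable at this depth.

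**Figure D2:**
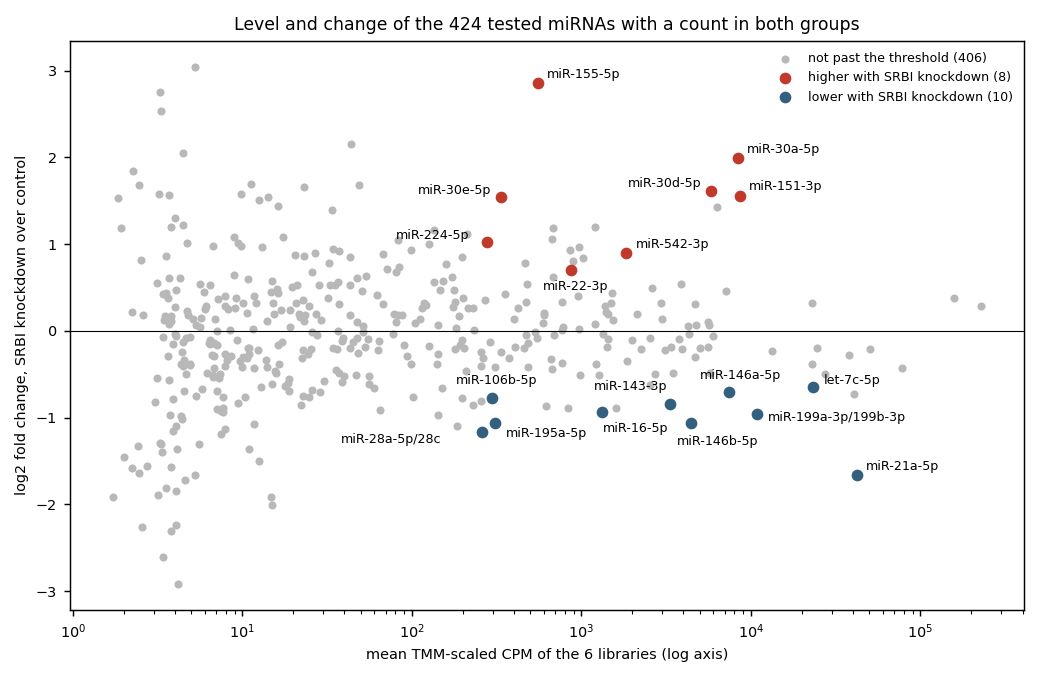
The horizontal axis gives the mean TMM-scaled CPM of the 6 libraries on a log scale and the vertical axis the log2 fold change of SRBI knockdown over control, for the 424 tested miRNAs with a count in both groups. Red points passed the test as higher (8), blue points as lower (10), and all lie at a mean of 10 CPM or more, with miR-155-5p at the top and miR-21a-5p at the bottom among them.

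Among the called miRNAs, 4 are known to respond to inflammatory signals in endothelial and immune cells: miR-155, miR-146a, miR-146b and miR-21. miR-155-5p is made from a noncoding transcript that NF-kappaB signalling induces. It stood at 780, 1288 and 863 CPM in SRBI knockdown media, against 127, 150 and 129 CPM in control media. The lowest knockdown library lay far above the highest control library. The log2 fold change was 2.85 (SE 0.28, 95% interval 2.23 to 3.47, edgeR adjusted p = 8.53e-05), a 7.22-fold higher level and the largest of the called differences.

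miR-21a-5p, one of the most abundant miRNAs of many cell types and a repressor of the translation inhibitor gene Pdcd4, moved the other way. It stood at 21594, 19643 and 19466 CPM in SRBI knockdown media, against 58936, 62503 and 71300 CPM in control media. The groups lay far apart, and the knockdown libraries were close to each other. The log2 fold change was -1.67 (SE 0.14, 95% interval -1.96 to -1.37, edgeR adjusted p = 3.10e-05), which left 0.315 times the control level. As a share of all counts it made up 2.20%, 2.11% and 1.87% of SRBI knockdown libraries, against 5.58%, 6.41% and 7.17% of control libraries, and it ranked 10 in knockdown and 4 in control.

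miR-146a and miR-146b repress the signalling adaptors IRAK1 and TRAF6 and so dampen NF-kappaB signalling. miR-146b-5p stood at 3115, 2857 and 2604 CPM in SRBI knockdown media, against 6018, 5619 and 6336 CPM in control media, and fell by 1.07 on the log2 scale (SE 0.17, edgeR adjusted p = 0.00447). miR-146a-5p stood at 5541, 6656 and 4736 CPM with knockdown, against 9556, 8982 and 9000 CPM in control, and fell by 0.70 on the log2 scale (SE 0.17, edgeR adjusted p = 0.0379). Both members of the seed GAGAACU were thus lower with knockdown, without overlap between groups. The call for miR-146b-5p held under all 19 alternatives and that for miR-146a-5p under 10 of 19, with adjusted p up to 0.21.

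The wider list of 22 inflammation-induced miRNAs held 1 higher (miR-155-5p) and 3 lower entries (miR-21a-5p, miR-146a-5p, miR-146b-5p), where 1.86% and 2.32% of all entries were called higher and lower. It had a median log2 fold change of 0.06 against -0.03 over all 431. The 18 others did not pass the test. Among them were miR-221-3p, an endothelial regulator of proliferation, at 0.62 (edgeR adjusted p = 0.0958), miR-132-3p, which is induced by growth factors, at 0.36 (0.541), and miR-31-5p at -0.43 (0.226). A list of 21 regulators of shear response and leukocyte adhesion held the same 4 and also miR-143-3p, so it is no separate evidence. These lists and those below were chosen with earlier results of these data known, so their shares of calls are descriptive only.

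The miR-30 family is abundant in endothelium, where in zebrafish and human cells it represses the Notch ligand DLL4. Of its 10 tested entries 3 were called higher, all of them 5p arms, where 1.86% of all entries were called higher. miR-30d-5p stood at 8288, 7124 and 10755 CPM in SRBI knockdown media, against 2493, 2843 and 3201 CPM in control media (log2 fold change 1.62, SE 0.19, edgeR adjusted p = 3.32e-04). miR-30e-5p stood at 417, 399 and 675 CPM with knockdown, against 170, 168 and 176 CPM in control (log2 fold change 1.54, SE 0.24, edgeR adjusted p = 0.00447). In both, every knockdown library lay above every control library.

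miR-30a-5p stood at 9061, 6936 and 24275 CPM in SRBI knockdown media, against 2418, 3159 and 4573 CPM in control media. The groups did not overlap, but replicate 3 of the knockdown was far above replicates 1 and 2. The log2 fold change was 1.99 (SE 0.42, 95% interval 1.07 to 2.90, edgeR adjusted p = 0.0217), and without SRBI knockdown replicate 3 it was 1.28 (adjusted p = 0.0104). The call was lost without control replicate 1 (adjusted p = 0.0873) or control replicate 2 (0.121), and when only these 2 groups were fitted (0.053).

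The other miR-30 entries did not pass. miR-30c-5p, which shares the seed GUAAACA and is known to lower the lipoprotein assembly protein MTTP in mouse liver, stood at 1070, 1188 and 999.7 CPM with knockdown, against 813, 776 and 886 CPM in control. Its groups did not overlap, and its log2 fold change was 0.40 (SE 0.16, edgeR adjusted p = 0.242). miR-30b-5p was at -0.12 (SE 0.29, adjusted p = 0.934). The family's summed level was 16350 to 37920 CPM in SRBI knockdown, 6850 to 7301 CPM in chylomicron and 6835 to 9886 CPM in control media, and its median log2 fold change was 0.15.

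**Figure D3:**
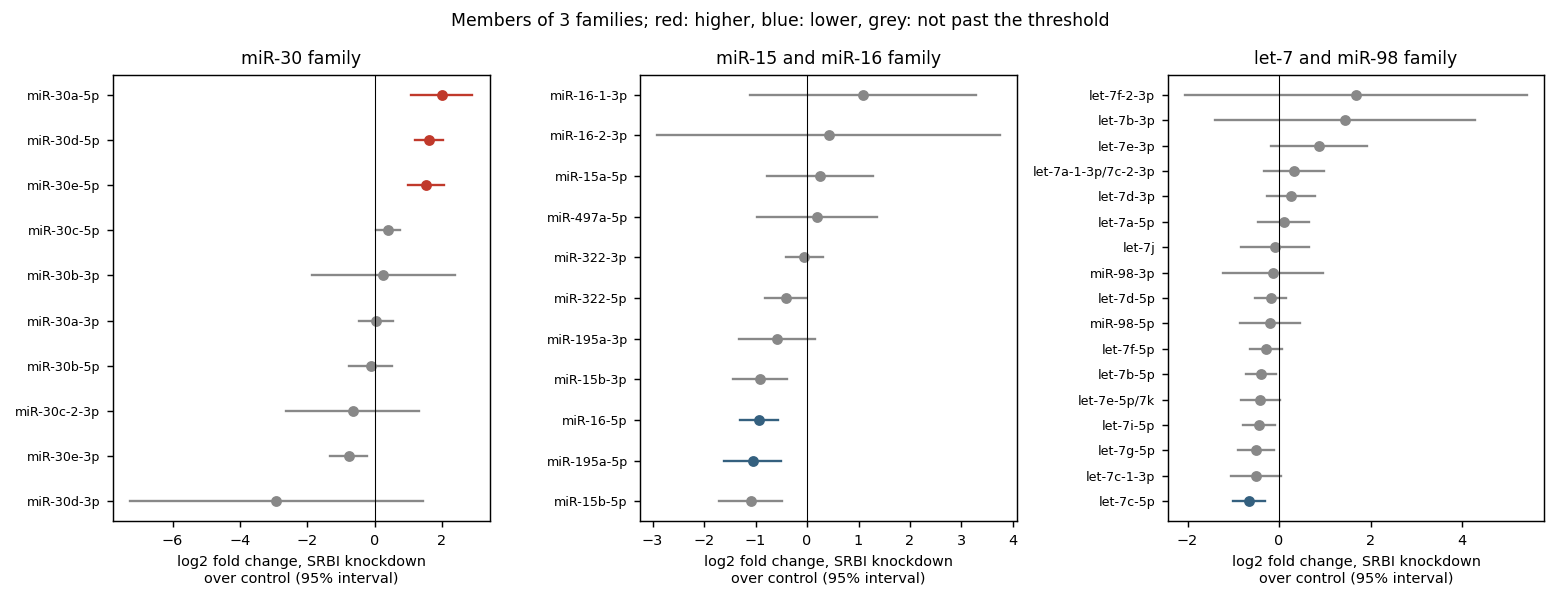
Each row is a tested family member with its log2 fold change of SRBI knockdown over control (point) and 95% interval (bar), for the miR-30, miR-15/16 and let-7 families, leaving out an entry with no count in a group. The 3 called miR-30 members lie clear to the right of 0 with miR-30e-3p to the left, 2 members of the miR-15/16 family and let-7c-5p passed as lower, and the widest bars belong to minor arms with few counts.

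miR-151-3p, from an intron of the focal adhesion kinase gene Ptk2, gave the smallest spread among the increases. It stood at 13460, 12975 and 12163 CPM in SRBI knockdown media, against 4462, 4315 and 4357 CPM in control media. Its groups were separated by far more than their ranges. The log2 fold change was 1.56 (SE 0.13, edgeR adjusted p = 3.10e-05), and it lay between 1.52 and 1.63 over the 19 alternatives. miR-28a-5p/28c, a joint entry from the related miR-28 hairpins with miR-28a-5p inside the bounds of Lpp, moved the other way. It stood at 165, 176 and 137 CPM with knockdown, against 299, 330 and 448 CPM in control (log2 fold change -1.17, SE 0.23, edgeR adjusted p = 0.0144). The groups did not overlap, and the call was lost without SRBI knockdown replicate 1 (adjusted p = 0.0801), control replicate 2 (0.0618) or control replicate 3 (0.071). The calls for miR-151-3p and miR-28a-5p/28c are of unlike arms. Of the other arms, miR-151-5p was at -0.03 and miR-28a-3p at -0.37, neither past the threshold (edgeR adjusted p = 0.980 and 0.256).

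The miR-15/16 family represses cell cycle and survival genes such as cyclins and Bcl2. miR-16-5p stood at 888, 922 and 926 CPM in SRBI knockdown media, against 1713, 1720 and 1814 CPM in control media, and fell by 0.94 on the log2 scale (SE 0.17, edgeR adjusted p = 0.00874). miR-195a-5p stood at 197, 201 and 205 CPM with knockdown, against 364, 430 and 462 CPM in control, and fell by 1.06 on the log2 scale (SE 0.25, edgeR adjusted p = 0.0379). In both the groups lay apart and the knockdown libraries were nearly equal to each other. The call for miR-16-5p was lost without SRBI knockdown replicate 1 (adjusted p = 0.0784) or control replicate 2 (0.0618), and that for miR-195a-5p under 7 of 19 alternatives (up to 0.169).

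Of 6 tested miRNAs with the seed AGCAGCA, these 2 were called lower and 4 did not pass, where 2.32% of all entries were called lower. miR-15b-5p, whose hairpin lies 143 bases from the chromosome 3 copy of miR-16, was just outside at -1.10 (SE 0.28, edgeR adjusted p = 0.0539): it stood at 105, 161 and 87.2 CPM with knockdown, against 184, 239 and 334 CPM in control. miR-15a-5p, beside the chromosome 14 copy, was at 0.24 (SE 0.47) and miR-497a-5p, beside miR-195a, at 0.20 (SE 0.53). They averaged 20.8 and 16.4 CPM in SRBI knockdown and 17.6 and 14.3 CPM in control media, where intervals were wide.

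A pair of called decreases belongs to miRNAs that mark fibroblasts and smooth muscle. miR-199a-3p/199b-3p, a joint entry for identical mature sequences read from genes inside the bounds of the dynamin genes Dnm1, Dnm2 and Dnm3, stood at 7488, 7048 and 7665 CPM in SRBI knockdown media, against 12078, 13998 and 17135 CPM in control media (log2 fold change -0.96, SE 0.18, edgeR adjusted p = 0.00992). miR-143-3p, which maintains the contractile state of smooth muscle and is known to be passed on by endothelial cells in vesicles, stood at 2785, 2334 and 1996 CPM with knockdown, against 4453, 3932 and 4423 CPM in control (log2 fold change -0.85, SE 0.20, edgeR adjusted p = 0.0379). Neither pair of groups overlapped. Of the 9 tested mural and mesenchymal entries 8 had a negative fold change, against 221 of 431 over all entries, and 2 were called lower, against 2.32% over all entries. Their median log2 fold change was -0.85, against -0.03 over all entries. Their summed level was 12280 to 15550 CPM in SRBI knockdown, 18190 to 20230 CPM in chylomicron and 21700 to 27670 CPM in control media. Several of these entries are arms of a shared hairpin or near neighbours, so the 9 are not separate observations. The part of fibroblasts and smooth muscle cells in these results was not tested. The miR-199 call was lost without SRBI knockdown replicate 1 (adjusted p = 0.0801), control replicate 2 (0.0618) or control replicate 3 (0.0546), and the miR-143-3p call under 7 of 19 alternatives (up to 0.139).

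Another 3 miRNAs rose. miR-224-5p, encoded within the bounds of the GABA receptor subunit gene Gabre, stood at 361, 338 and 409 CPM in SRBI knockdown media, against 170, 179 and 198 CPM in control media (log2 fold change 1.02, SE 0.18, edgeR adjusted p = 0.00947). miR-542-3p, known in human cells as a repressor of survivin, stood at 2330, 1809 and 3059 CPM with knockdown, against 1323, 1184 and 1363 CPM in control (0.89, SE 0.20, adjusted p = 0.0375). miR-22-3p, studied as a regulator of cardiac hypertrophy, stood at 1031, 1019 and 1197 CPM with knockdown, against 722, 686 and 584 CPM in control (0.70, SE 0.16, adjusted p = 0.0379). The groups lay apart in each. The miR-224-5p call was lost without control replicate 2 (adjusted p = 0.0618), that of miR-542-3p under 5 alternatives (up to 0.145) and that of miR-22-3p under 6 (up to 0.196).

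Another 2 miRNAs fell. miR-106b-5p, a repressor of the cell cycle inhibitor Cdkn1a and of the cholesterol exporter Abca1, stood at 219, 214 and 221 CPM in SRBI knockdown media, against 370, 349 and 399 CPM in control media (log2 fold change -0.77, SE 0.18, edgeR adjusted p = 0.0379). let-7c-5p, of the let-7 family that represses growth genes such as Hmga2 and Ras, stood at 17112, 17078 and 19669 CPM with knockdown, against 28919, 26116 and 29643 CPM in control (-0.65, SE 0.16, adjusted p = 0.0449). Neither overlapped, and the calls were lost under 8 and 9 of 19 alternatives, with adjusted p up to 0.19 and 0.24. Relatives with the same seed did not pass: miR-93-5p, miR-17-5p and miR-20a-5p lay between -0.38 and -0.20, and 7 of the 8 other let-7 seed members had negative values between -0.50 and -0.19. let-7a-5p, 1 base from let-7c-5p over 22, was at 0.10 (SE 0.25, adjusted p = 0.934).

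The most abundant miRNAs of the medium mostly did not pass. miR-99a-5p, a repressor of mTOR, was the most abundant entry and made up 26.4%, 28.2% and 22.0% of counts in SRBI knockdown media, against 22.6%, 20.5% and 17.7% in control media (log2 fold change 0.29, edgeR adjusted p = 0.371). miR-148a-3p, a repressor of the LDL receptor and of ABCA1, followed with 19.0%, 16.6% and 18.8% in knockdown, against 14.8%, 13.2% and 12.9% in control (0.37, adjusted p = 0.247). In miR-148a-3p the groups did not overlap in these shares but did in scaled CPM, and in miR-99a-5p the lowest knockdown library lay below the highest control library. miR-152-3p, with the seed of miR-148a, was at -0.73 (adjusted p = 0.247), and without SRBI knockdown replicate 3 it was at -1.14 (0.0203). The remaining entries among the 10 most abundant in control were let-7i-5p (-0.43), let-7f-5p (-0.28), let-7g-5p (-0.50), miR-27a-3p/27b-3p (-0.21) and miR-24-3p (-0.20), none past the threshold, with miR-21a-5p and let-7c-5p called lower.

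These 10 entries together held 69.3% to 70.8% of counts in SRBI knockdown, 72.1% to 76.0% in chylomicron and 71.5% to 73.5% in control libraries. The 8 called increases held 3.42% to 5.14% of counts in SRBI knockdown and 1.13% to 1.47% in control libraries. The 10 called decreases held 5.55% to 6.13% in SRBI knockdown and 11.6% to 14.2% in control libraries. Most of the second difference was miR-21a-5p.

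The 2 arms of a hairpin come from 1 precursor. Both arms were tested under matching single names for 84 hairpins, and in 45 of them the arms had the same sign. In the 11 of these with a called arm, no hairpin had both arms called and 6 had the same sign. Among the 6 were the uncalled arms of miR-22 (0.38), miR-195a (-0.59) and miR-106b (-0.24). Joint names and arms named by gene copy were not paired. Of arms left out this way, miR-199a-5p (-0.89, SE 0.36), miR-199b-5p (-0.97, SE 0.55), miR-28a-3p (-0.37, SE 0.16) and let-7c-1-3p (-0.51, SE 0.25) had the called sign. The arms let-7a-1-3p/7c-2-3p (0.33, SE 0.30), miR-16-1-3p (1.09, SE 0.995) and miR-16-2-3p (0.42, SE 1.51) did not. miR-30a-3p stood at 747, 569 and 1037 CPM in SRBI knockdown media, against 740, 763 and 787 CPM in control media (log2 fold change 0.04, SE 0.22), while its 5p arm was at 1.99. miR-30e-3p stood at 81.1, 52.9 and 92.0 CPM with knockdown, against 129, 103 and 152 CPM in control, a negative value of -0.77 (SE 0.25, edgeR adjusted p = 0.109), while its 5p arm was at 1.54. miR-151-5p was at -0.03 (SE 0.27) with its 3p arm at 1.56. The sign of miR-151-5p turned positive under other scalings, at 0.0020 with DESeq2 size factors and 0.023 with upper-quartile factors. The difference between arms was not tested. The minor arms of miR-21a and miR-155 stood below 10 CPM, with SE of 1.45 and 1.38, and could not be read.

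**Figure D4:**
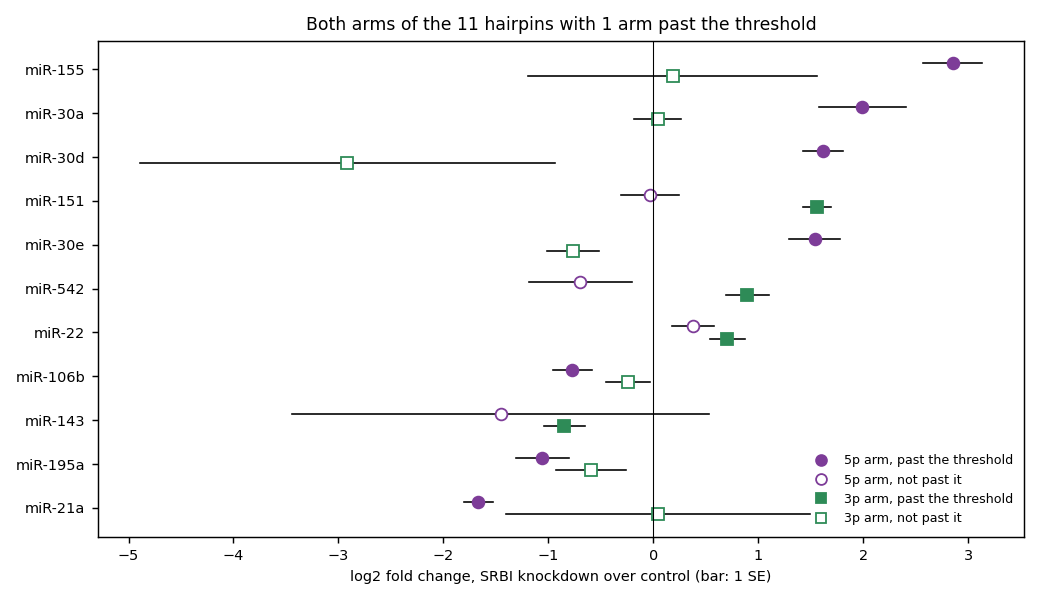
Circles give the 5p arm and squares the 3p arm as log2 fold change of SRBI knockdown over control, with a bar of 1 SE. The 11 hairpins shown are those with matching arm names and 1 called arm. Symbols are filled where the arm passed the test. The uncalled arms of miR-30a, miR-151 and miR-21a lie near 0 and that of miR-30e lies at -0.77, while their called arms lie at 1.99, 1.56, -1.67 and 1.54.

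Among entries with a RefSeq sequence, neighbouring hairpins within 10 kb on the same strand held no call. The called miR-30d-5p, miR-143-3p and miR-151-3p had no such sequence, so their neighbours were not searched. miR-542-3p lies at chrX:53049415-53049436 in a cluster with miR-450, miR-351, miR-503 and miR-322, none of which passed, with miR-503-5p at -0.51 (edgeR adjusted p = 0.212) and miR-351-5p at 0.29 (0.728). miR-106b-5p lies at chr5:138165787-138165807 within Mcm7, a replication helicase gene, beside miR-93-5p at -0.38 (0.284) and miR-25-3p at 0.20 (0.599). miR-224-5p lies at chrX:72261085-72261105 beside miR-452-5p at 0.20 (0.737). let-7c-5p at its chromosome 16 copy lies 732 bases from miR-99a-5p, which was at 0.29. miR-199a-3p at its chromosome 1 copy lies near miR-214-3p, at -0.48 (0.453).

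The chylomicron libraries were set against the knockdown libraries in the same fit. SRBI knockdown differed from chylomicron media in 12 of 431 miRNAs (2.78%), 11 higher (2.55%) and 1 lower (0.232%). The 2 comparisons share the knockdown libraries, so values are given side by side and agreement between them carries no weight. miR-155-5p stood at 123, 65.5 and 86.5 CPM in chylomicron media, and knockdown exceeded them by 3.41 on the log2 scale (SE 0.29, edgeR adjusted p = 2.24e-05). miR-21a-5p stood at 54192, 65287 and 59788 CPM in chylomicron media, and knockdown was lower by a log2 fold change of -1.56 (SE 0.14, adjusted p = 2.24e-05). For both, the chylomicron libraries were on the control side of the knockdown libraries.

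miR-30d-5p, miR-30a-5p, miR-30e-5p, miR-151-3p, miR-224-5p and miR-542-3p were also called higher than in chylomicron media, with log2 fold changes between 0.90 and 2.16. miR-22-3p was not (0.33, SE 0.16, edgeR adjusted p = 0.317). Among the decreases, miR-146b-5p (-0.59, adjusted p = 0.098), miR-16-5p (-0.59, 0.0906), miR-199a-3p/199b-3p (-0.40, 0.273) and let-7c-5p (-0.25, 0.434) did not pass against chylomicron. In miR-195a-5p, chylomicron replicate 3 stood at 205 CPM, level with the knockdown libraries. The count of 12 fell to 5 without chylomicron replicate 2 or 3 and to 7 without SRBI knockdown replicate 1, and it was 43 without SRBI knockdown replicate 3. miR-129-5p, miR-451a, miR-221-3p and miR-30c-5p were called higher than in chylomicron media as well.

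Endothelial miRNAs were read as a list, though a comparison between groups cannot check the label of the cells. miR-126a-3p, the miRNA most closely tied to endothelium, stood at 917, 722 and 682 CPM in SRBI knockdown media, against 733, 695 and 877 CPM in control media (log2 fold change 0.01, SE 0.25). It was present at a modest level next to miR-99a-5p, and its groups overlapped. None of 15 endothelial entries passed, and their median was 0.01. Their summed level was 70420 to 100400 CPM in SRBI knockdown, 83790 to 96270 CPM in chylomicron and 89140 to 92660 CPM in control media. Most of that sum came from miR-27a-3p/27b-3p (51950 to 57310 CPM in control) and miR-24-3p (24150 to 27350 CPM in control). The joint entry also counts miR-27b, which was not chosen as an endothelial marker. The sum is therefore no measure of endothelial identity.

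None of the entries in the lists of other cell types passed, apart from the mural ones above. The 3 erythroid and platelet entries summed to 1615 to 2975 CPM in SRBI knockdown and 1165 to 1247 CPM in control media. Their most abundant entry miR-486a-5p/486b-5p stood at 1318, 1592 and 1031 CPM with knockdown, against 743, 734 and 718 CPM in control (log2 fold change 0.84, edgeR adjusted p = 0.0784). The erythroid miRNA miR-451a stood at 944, 1327 and 561 CPM with knockdown, against 465, 373 and 409 CPM in control (log2 fold change 1.18, SE 0.32, edgeR adjusted p = 0.0576). The groups did not overlap in either entry, as in 23.7% of all tested entries. The remaining entry of this list, miR-486a-3p/486b-3p, stood at 41.4, 56.2 and 23.35 CPM with knockdown, against 39.0, 58.4 and 42.2 CPM in control. Its groups overlapped, and its log2 fold change was -0.20 (edgeR adjusted p = 0.911). The 2 myeloid entries summed to 25.7 to 65.3 CPM in SRBI knockdown and 26.3 to 52.4 CPM in control media, and the myeloid miRNA miR-223 did not reach the level needed for testing. The 4 muscle entries summed to 1195 to 1456 CPM in SRBI knockdown and 1928 to 2050 CPM in control, the 3 liver entries to 4093 to 6093 CPM in SRBI knockdown and 3853 to 5485 CPM in control, and the 5 neural entries to 10260 to 28540 CPM in SRBI knockdown and 9716 to 15030 CPM in control. Within the neural list, miR-128-3p split the knockdown libraries, with 10866 and 14307 CPM in replicates 1 and 2 and 2511 CPM in replicate 3, against 4350, 3380 and 2571 CPM in control (1.43, SE 0.53, adjusted p = 0.18). The part of RNA from such cells, or from serum, in the results was not tested.

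In lists tied to SR-BI and lipoproteins, the counts were near the 4.18% called over all entries. None of 12 entries of miRNAs reported to repress SR-BI passed (median log2 fold change 0.07), among them miR-185-5p at -0.49 (edgeR adjusted p = 0.138) and miR-125a-5p at 0.96 (0.358). Of 17 entries reported on high-density lipoprotein 1 was lower, miR-146a-5p (median 0.01). Of 22 entries that regulate cholesterol and lipid metabolism 1 was lower, miR-106b-5p (median -0.04). The 34 entries of the imprinted Dlk1-Dio3 cluster held no call. A positive fold change was seen in 25 of them, against 209 of 431 over all entries, and their median was 0.39. Their summed level was 1313 to 2360 CPM in SRBI knockdown, 1069 to 1756 CPM in chylomicron and 1306 to 1522 CPM in control media, and these ranges overlapped. Several are arms of a shared hairpin and all belong to the same cluster, so the 34 are not separate observations. SRBI knockdown replicates 1, 2 and 3 were not ordered alike in all of them, with miR-543-3p at 68.3, 128.8 and 16.2 CPM and miR-134-5p at 55.05, 43.51 and 67.66 CPM.

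In sequence, the called miRNAs had a lower share of G and C than the tested ones as a whole, with a median of 41.9% in the 6 higher ones and 40.9% in the 9 lower ones that had a sequence, against 47.8% in 368 tested entries. A first base of U was present in 83.3% of the higher, 77.8% of the lower and 41.6% of all tested entries with a sequence. The letters GGAG, searched on the mature strand as a motif linked to loading into vesicles, occurred in 0 of 6 higher, 1 of 9 lower and 11.1% of tested sequences. GCAG occurred in 0 of 6 higher, 3 of 9 lower (33.3%) and 12.5% of tested sequences, and in miR-16-5p and miR-195a-5p it overlaps the seed AGCAGCA shown above. Called miRNAs were mostly abundant ones, and abundance was not matched in these shares.

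None of the 3 entries just inside the level rule passed the test. They were miR-551b-3p with a mean count of 5 and miR-143-5p and miR-466h-5p with 5.11, and just outside lay miR-301a-5p, miR-379-3p and miR-701-5p with 4.89.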

How the data were processed

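The miRNA values the authors deposited are raw counts, whole numbers without normalization, for 1927 mature miRNA names of which 35 join several miRNAs. Small RNA libraries were made with a NEBNext multiplex kit, per the labels' protocols. Per the submitters' processing notes, which assign no roles, the tools were STAR 2.7.3a, Subread 1.6.3, featureCounts and bcl2fastq, and the builds GRCm38 and mm10. The counting step for miRNAs is not given in the sources used here. The deposited endothelial mRNA values were a signal, read counts divided by a factor per library by the authors. Only Scarb1 was used from them, as a share of the library total.

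Entries with a mean count of at least 5 over the 9 media libraries were tested with edgeR 4.0.16 (R 4.3.3, limma 3.58.1), TMM factors on full library totals and 1 quasi-likelihood fit of the 3 groups, contrast SRBI minus control, Benjamini-Hochberg over 431 entries. Alternatives used other scalings, filters, DESeq2 1.42.0, limma-voom, omitted libraries and a replicate block. The script was tested on simulated data. Named miRNAs were all those called and the 10 most abundant in control. The other arm was added for the 11 hairpins with a called arm whose arms were paired by name. Other miRNAs were named from the lists or as relatives and neighbours, after their values were seen. Members and lists were chosen with earlier results of these data known. Precision covers the spread between libraries, since reads lacking molecular identifiers cannot be counted as separate molecules.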

Additional observations from a re-analysis of the deposited data

How the results depend on the processing

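Against control, 6 of the 18 calls (miR-21a-5p, miR-151-3p, miR-155-5p, miR-30d-5p, miR-30e-5p and miR-146b-5p) passed under all 19 alternatives, and none of the 18 changed sign under any. The main count was 18 (8 higher, 10 lower). It was 46 (27 and 19) with no filter on low counts, 33 (17 and 16) at a mean count of at least 50 and 49 (27 and 22) with DESeq2. Library totals alone gave 5 lower calls, and edgeR's filterByExpr gave 5. Leaving out 1 library gave 6 (control replicate 2) to 48 (SRBI knockdown replicate 3) calls, 4 to 27 of them higher and 2 to 21 lower. Against chylomicron, the main count was 12 (11 higher, 1 lower). It was 41 (29 and 12) with no filter, 24 (17 and 7) at a mean count of at least 50, 44 (24 and 20) with DESeq2 and 5 (4 higher) when only the 2 groups were fitted. Upper-quartile factors gave 6 higher and 3 lower, limma-voom 3 lower, and joint names left out 2 lower. Leaving out 1 library gave 5 to 43 calls, 4 to 25 of them higher and 1 to 18 lower. Without chylomicron replicate 3, an alternative chosen after seeing the data because it held the fewest counts, the fit called 20 against control. The cause of these shifts was not tested. Some alternatives also changed the number of libraries or of entries tested. With the replicate block the counts were 33 against control (18 higher) and 29 against chylomicron (21 higher, 8 lower). Whether replicate numbers pair the libraries is not known, and correlations of deviations within groups of 3 cannot settle it. Deviations from group means correlated at 0.14, -0.19 and 0.06 between same-numbered knockdown and control libraries. Between same-numbered knockdown and chylomicron libraries they correlated at 0.07, -0.06 and 0.22. Not every library correlated best with its own number. Among the named miRNAs refitted under the alternatives, 3 uncalled arms changed sign. miR-151-5p was at 0.0020 with DESeq2 size factors, 0.0017 with library totals, 0.023 with upper-quartile factors, 0.011 with filterByExpr, 0.0063 at a mean count of at least 50, 0.0037 with DESeq2 and 0.014 with limma-voom, and -0.22 to 0.10 over the fits without 1 library. With limma-voom, miR-21a-3p was at -0.12 and miR-30a-3p at -0.010. Without 1 library, miR-21a-3p ranged from -0.54 to 0.62 and miR-30a-3p from -0.18 to 0.21. Across scalings the median of all entries lay between -0.03 and 0.02. Depth limits entries below 10 CPM most.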

Other observations

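Several well covered miRNAs lay just outside the threshold against control. miR-129-5p, a miRNA best known from brain, stood at 323, 368 and 172 CPM in SRBI knockdown media, against 132, 151 and 116 CPM in control media (log2 fold change 1.11, SE 0.29, edgeR adjusted p = 0.0545). miR-423-3p stood at 1107, 1171 and 1110 CPM with knockdown, against 768, 648 and 525 CPM in control (0.80, SE 0.21, adjusted p = 0.0545). miR-26b-5p stood at 1248, 1147 and 959 CPM with knockdown, against 1482, 1822 and 2902 CPM in control (-0.89, SE 0.24, adjusted p = 0.0576). The groups did not overlap in any of these 3. miR-92a-3p, of the miR-17-92 cluster and a repressor of the endothelial factor KLF2, was at 0.85 (adjusted p = 0.0845).

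Among other families, none of the 19 tested entries of the Sfmbt2 cluster, a repeat-rich imprinted locus, passed. Their summed level was 290 to 463 CPM in SRBI knockdown, 357 to 796 CPM in chylomicron and 365 to 598 CPM in control media. None of the 6 miR-29 entries, repressors of collagen genes, passed either. They summed to 3155 to 5689 CPM in SRBI knockdown, 4285 to 7008 CPM in chylomicron and 4146 to 4532 CPM in control media.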
